A study of Mus musculus with 6 samples.

Results

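The genes described here encode the protein folding, quality control and export machinery of the endoplasmic reticulum (ER) and the unfolded protein response, the programme that adjusts this machinery to the load of newly made secretory protein. The members are 43 genes, listed by symbol for their known roles with earlier results of these data in view, out of 19938 genes that have a probe set of their own on the array. Of the 43, 41 were measured by a probe set annotated to 1 gene, and all 41 passed the filter on low values and were tested among 17020 genes. Fkbp10 and Mbtps2 had no such probe set and were not tested.

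Total RNA came from growth plate chondrocytes taken from the femurs and tibiae of mice 30 days after birth. There were 3 samples from control mice and 3 from mice with a conditional mutation of Lkb1, each on its own Affymetrix array. Lkb1, now named Stk11, is the gene of a kinase that acts upstream of AMPK and related kinases. Both groups had a mixed FVB, 129S6 and C57CL/6 background (spelled as in the labels), and the labels name neither the driver of the conditional deletion nor the alleles of the controls. Replicates are labelled as biological, with no word on separate animals or litters, so that p-values speak only of the spread among these 6 samples. Levels are given as log2(intensity + 1) of 1 probe set per gene, and a difference is the mutant mean minus the control mean on that scale. Levels of different probe sets cannot be set against each other.

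Chondrocytes secrete large amounts of collagen and proteoglycan, all of which enter the ER as unfolded chains. Chaperones of the Hsp70 and Hsp90 families, lectins, disulfide isomerases and prolyl isomerases fold them there, COPII vesicles carry folded cargo to the Golgi, and chains that fail to fold are drawn back to the cytosol and degraded. The sensors IRE1, PERK and ATF6 in the ER membrane report an excess of unfolded protein and raise the genes of the machinery, partly through XBP1 and cleaved ATF6, which act on ER stress response elements in promoters. BBF2H7, the product of Creb3l2, is a related membrane-bound factor known for its role in cartilage, where it activates COPII genes.

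Stk11 was lower in the mutants. Its 3 controls, in the order of their replicate numbers as everywhere below, stood at 8.68, 9.08 and 9.67, and its 3 mutants at 7.39, 7.51 and 7.52 (difference -1.67, SE 0.22, limma adjusted p = 0.00387). The controls of Stk11 rose in the same ranking as their blood cell signal, given below. Against control replicate 1 alone the difference was -1.21, and the part of blood cells in it was not tested. Where the Stk11 probes lie relative to the deletion was not analysed here. The 18 cartilage markers were above background, the 95% point of 1035 olfactory receptor probe sets, on every array. Their mean level was 11.36, 11.25 and 11.14 in the controls and 11.21, 11.31 and 11.25 in the mutants. Blood cell transcripts separated the groups: 27 genes of erythroid cells, of neutrophils and of B cells had a mean level of 8.54, 9.31 and 10.03 on the control arrays, against 6.32, 6.31 and 6.09 on those of the mutants. Of these 27 genes, 25 were above background in all controls and 6 in all mutants. Markers of several other cell types were higher in the mutants. Those of fibrous tissue had 7 of 10 genes called higher, with a mean of 9.05, 8.80 and 8.36 in the controls and 10.32, 10.27 and 10.39 in the mutants. Macrophage markers (7 of 8 called higher) had a mean of 7.66, 7.43 and 7.50 against 8.55, 8.14 and 8.12, and endothelial markers (6 of 8) had means up to 6.66 in the controls and from 7.18 in the mutants. Of 5 osteoclast markers 2 were called higher and 1 lower, with a median difference of 0.69. Markers of prehypertrophic and hypertrophic chondrocytes were lower in the mutants, with a mean of 10.07, 9.99 and 9.79 in the controls and 8.96, 9.22 and 9.24 in the mutants. In such bulk RNA fewer cells of a type and less RNA per cell cannot be told apart, and the part of these other cells in the differences given below was not tested.

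Of the ER genes tested, 9.76% passed the test between mutant and control growth plates, beside 14.7% of all genes. Those that passed were lower in the mutants. Of the 41 genes tested, 37 did not pass an adjusted p of 0.05, 4 fell in the mutants and 0 rose. The 4 that fell were the chaperone genes Hyou1 and Sdf2l1, the secreted ER protein gene Manf and the mannosidase-like gene Edem2, each by 1.33-fold to 1.42-fold. The median difference of the 41 genes was -0.04, beside 0.03 for all genes tested, and the median size of the difference, without its sign, was 0.154 beside 0.163. By that measure the members differed about as much as the typical gene on the array. The median SE was 0.094 for the members and 0.115 for all genes, so the 2 sizes are not matched for noise. Only Sdf2l1 differed by 0.5 or more, which is 2.44% of the members, against 13.6% of all genes. Of all 17020 genes, 14.7% were called, 7.84% higher and 6.82% lower, and 9.76% of the members were called, all of them lower.

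At an unadjusted p under 0.05, 10 members (24.4%) differed, beside 29.5% of all genes. Of these, 8 were lower (19.5%, beside 13.5% of all genes), and 2, Mbtps1 and Sel1l, were higher. The groups did not overlap for 19 members, 12 of them lower and 7 higher in the mutants. That is 46.3% of the members, beside 36.7% of all genes. For 31 of the 37 genes that were not called, the 95% interval of the difference lay within -0.5 and 0.5. The spread was small, with a median SD of 0.10 among the controls and 0.06 among the mutants.

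**Figure D1:**
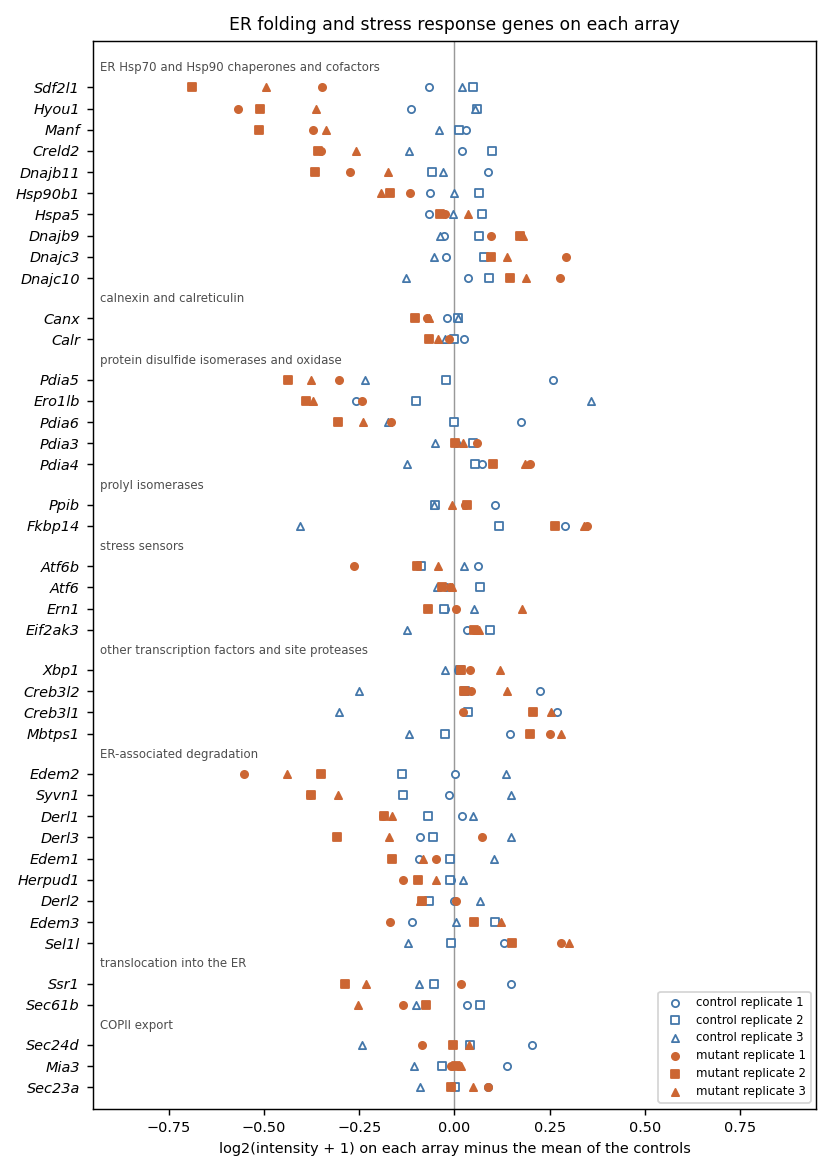
Levels of the 41 measured ER genes on each of the 6 arrays, as log2(intensity + 1) minus the mean of the 3 controls (x axis), with genes grouped by role on the y axis; open blue symbols are controls and filled orange symbols are mutants. The mutants lie apart below the controls for Sdf2l1, Hyou1, Manf and Edem2, while for Hspa5, Calr, Atf6 and Mia3 the symbols of both groups mix.

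Of the 10 chaperone and cofactor genes 3 fell, 0 rose and 7 were not called. Hspa5, which encodes BiP, the ER Hsp70 protein and the classic marker of the unfolded protein response, was at 11.41, 11.55 and 11.47 in the controls and 11.45, 11.43 and 11.51 in the mutants. The 2 groups overlapped, and the difference was -0.01 (95% interval -0.21 to 0.19, limma adjusted p = 0.956). Hsp90b1, which encodes the ER Hsp90 protein GRP94, differed by -0.16 (adjusted p = 0.258).

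Around BiP, some of its partners fell. Hyou1 encodes the large Hsp70-related protein ORP150, which exchanges nucleotide on BiP. It was at 8.75, 8.93 and 8.92 on the control arrays and at 8.30, 8.36 and 8.50 on those of the mutants, so every mutant array lay below every control. The difference was -0.48 (SE 0.10, 95% interval -0.71 to -0.25), 1.40-fold lower, with a limma adjusted p of 0.0184. Sdf2l1, which encodes an ER protein that works in a complex with the J protein ERdj3, was at 8.60, 8.71 and 8.69 in the controls and 8.32, 7.98 and 8.17 in the mutants. All mutants were again lower, with the widest gap for mutant replicate 2. Sdf2l1 fell by 0.51 (SE 0.11, 1.42-fold, adjusted p = 0.021). Manf encodes a small ER protein that is secreted when ER calcium falls. Its levels were 9.35, 9.33 and 9.28 in the controls and 8.95, 8.81 and 8.98 in the mutants, 1.33-fold lower (difference -0.41, SE 0.09, adjusted p = 0.0222).

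Other cofactors of BiP were on either side of 0. Creld2, which encodes an ER protein with disulfide isomerase activity, was at 9.86, 9.94 and 9.72 in the controls and 9.49, 9.48 and 9.58 in the mutants, and its groups did not overlap. It missed the threshold, with a difference of -0.32 and an adjusted p of 0.0594. Dnajb11, which encodes ERdj3, had all 3 mutants below the controls too (difference -0.27, adjusted p = 0.0971). Against that, the J protein genes Dnajb9 (0.15), Dnajc3 (0.18) and Dnajc10 (0.20) had all 3 mutants above the controls, with adjusted p from 0.205 to 0.285. Dnajb9 encodes ERdj4, Dnajc3 the PERK inhibitor P58IPK and Dnajc10 the disulfide reductase ERdj5.

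**Figure D2:**
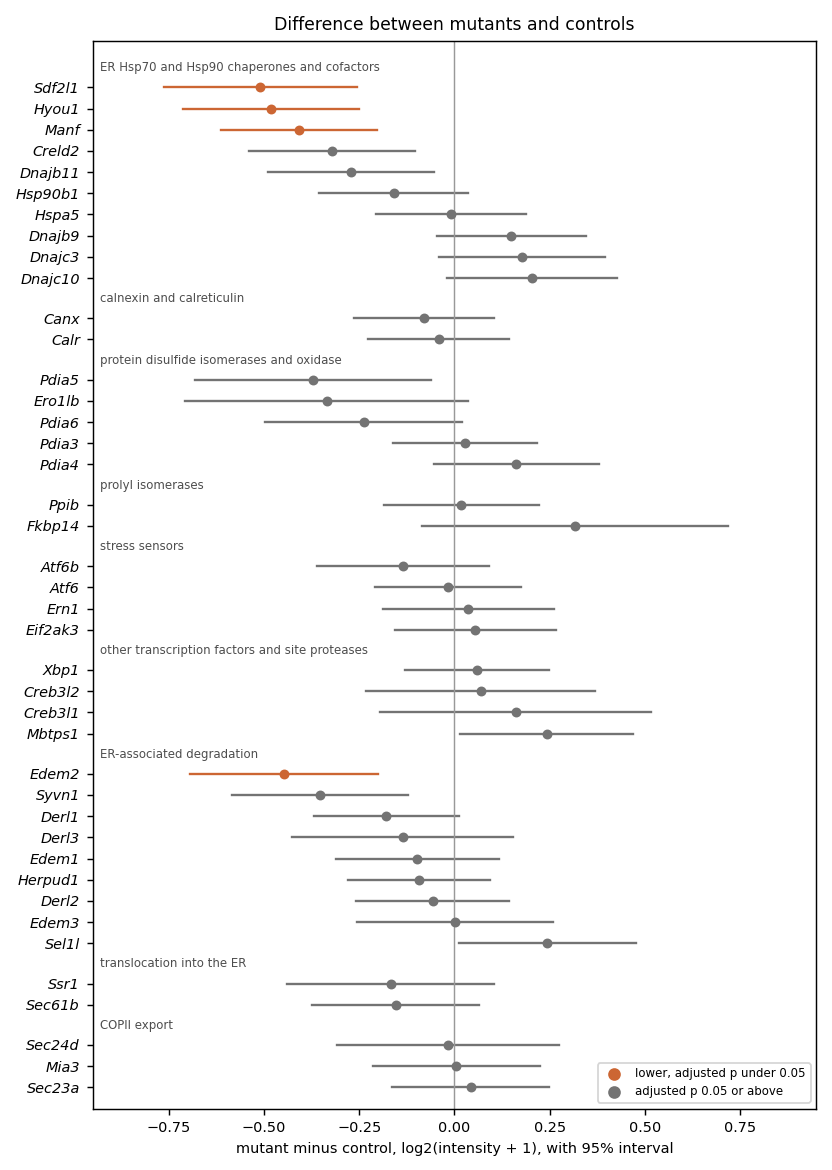
Difference between 3 mutant and 3 control arrays (x axis, log2(intensity + 1)) for each of the 41 ER genes, with its 95% interval from limma; orange marks the 4 genes with an adjusted p under 0.05. The 4 orange intervals lie wholly below 0, and most of the others include it.

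The promoters were searched for exact copies of the element through which ATF6 and XBP1 act. Copies that differ from its fixed letters, or that lie outside the window, were not counted. RefSeq promoters (GRCm38.p6, 250 bases before to 50 after the start of the gene) were matched for 37 of the 43 members, with 39 promoters. Atf6, Creb3l1, Derl1, Fkbp10, Hyou1 and Manf were not matched. The ER stress response element (ERSE) was searched on both strands as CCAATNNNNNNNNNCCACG. It stood in the promoters of 10 of the 37 genes, beside 37 of all 27025 genes (0.137%) and 39 of all 32851 promoters (0.119%). The members were listed for their known roles, so this share is not independent evidence. The shorter ERSE-II, ATTGGNCCACG, stood in 2 member promoters and in 12 of all (0.0365%). Each match is printed with 8 bases on either side, 5′ to 3′ on the strand of the element, with the fixed letters of the element in capitals, because the element is a feature that several members share:
Hspa5, ERSE, chr2:34772017-34772051, plus strand: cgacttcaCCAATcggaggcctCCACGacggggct
Calr, ERSE, chr8:84847067-84847101, plus strand: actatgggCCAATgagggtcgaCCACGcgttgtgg
Derl3, ERSE, chr10:75893234-75893268, minus strand: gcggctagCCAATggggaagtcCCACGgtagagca
Hsp90b1, ERSE, chr10:86705630-86705664, minus strand: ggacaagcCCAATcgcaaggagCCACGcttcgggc
Hsp90b1, ERSE, chr10:86705525-86705559, plus strand: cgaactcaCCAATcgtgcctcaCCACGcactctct
Canx, ERSE, chr11:50325792-50325826, minus strand: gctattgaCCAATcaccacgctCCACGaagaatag
Pdia6, ERSE, chr12:17266483-17266517, plus strand: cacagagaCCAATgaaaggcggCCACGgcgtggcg
Ero1lb, ERSE, chr13:12565674-12565708, minus strand: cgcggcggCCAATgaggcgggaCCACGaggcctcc
Dnajc3, ERSE, chr14:118937819-118937853, plus strand: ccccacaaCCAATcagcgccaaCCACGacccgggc
Creld2, ERSE, chr15:88819512-88819546, minus strand: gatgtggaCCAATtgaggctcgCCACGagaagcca
Syvn1, ERSE, chr19:6046524-6046558, plus strand: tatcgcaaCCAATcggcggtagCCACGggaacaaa
Herpud1, ERSE-II, chr8:94386369-94386395, plus strand: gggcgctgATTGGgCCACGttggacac
Dnajb11, ERSE-II, chr16:22857844-22857870, plus strand: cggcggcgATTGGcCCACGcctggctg

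In these lines the CCAAT and CCACG parts are fixed by the search, and the 9 bases between them differ in every copy. Hsp90b1 holds 2 copies in opposite orientation. The 10 ERSE genes lay on either side of 0, with a median difference of -0.15 and a range of -0.35 to 0.18, and none of them passed the test. Without an exact ERSE in the matched window, 26 tested genes had a median of 0.01, and 2 of them fell, Sdf2l1 and Edem2. The 5 tested genes with no matched promoter had a median of -0.18, and 2 of them fell, Hyou1 and Manf. Of all genes tested 14.7% were called, and these sets are too small for their counts to be compared. Of the ERSE genes, Creld2 and Syvn1 came nearest to the threshold. The 8-base element TGACGTGG (UPRE) stood in the promoters of Sec24d and Sec23a, and in 0.676% of all promoters. The cyclic AMP response element TGACGTCA stood in no member promoter and in 1.79% of all. The core TTGCATCA of the element read by ATF4 stood in that of Herpud1 alone among the members, and in 0.895% of all.

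**Figure D3:**
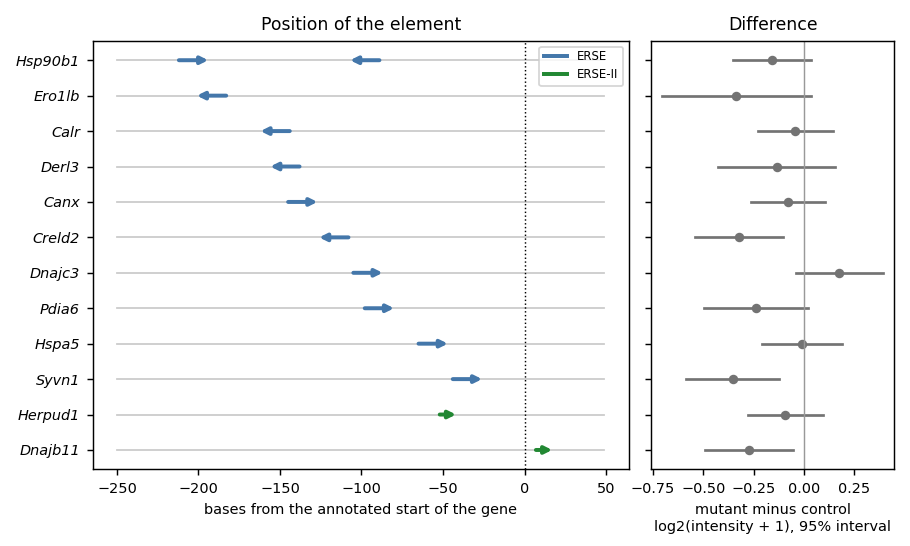
Left, position of each ERSE (blue) and ERSE-II (green) in the promoters of 12 ER genes, in bases from the annotated start of the gene, with arrows pointing along the element; right, the difference between mutants and controls of the same gene, log2(intensity + 1), with its 95% interval. The blue elements lie between positions -212 and -26, and the intervals of Creld2, Syvn1 and Dnajb11 lie below 0 although none of the 12 genes was called.

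4 whole promoters are printed to set genes that fell beside genes that carry the element. Hspa5 has an ERSE and overlapped between the groups, and Creld2 has one and had all mutants below the controls without passing the test. Sdf2l1 and Edem2 fell and hold no exact ERSE in this window. Capitals mark the fixed letters of an ERSE, which in Creld2 lies on the opposite strand and so reads CGTGG and then ATTGG.
Hspa5, chr2:34771840-34772139, plus strand: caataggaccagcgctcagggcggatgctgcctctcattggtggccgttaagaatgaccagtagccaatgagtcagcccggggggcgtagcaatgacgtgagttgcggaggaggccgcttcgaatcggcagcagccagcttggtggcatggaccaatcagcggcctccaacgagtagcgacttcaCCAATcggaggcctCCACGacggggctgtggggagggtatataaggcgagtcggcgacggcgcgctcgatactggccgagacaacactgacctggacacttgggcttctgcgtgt
Creld2, chr15:88819396-88819695, plus strand: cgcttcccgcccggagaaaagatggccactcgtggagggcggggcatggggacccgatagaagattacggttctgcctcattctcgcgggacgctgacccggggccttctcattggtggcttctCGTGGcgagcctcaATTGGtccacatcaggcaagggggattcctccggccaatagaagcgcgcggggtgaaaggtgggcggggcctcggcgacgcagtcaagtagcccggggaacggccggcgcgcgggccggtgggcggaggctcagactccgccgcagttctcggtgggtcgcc
Sdf2l1, chr16:17132334-17132633, minus strand: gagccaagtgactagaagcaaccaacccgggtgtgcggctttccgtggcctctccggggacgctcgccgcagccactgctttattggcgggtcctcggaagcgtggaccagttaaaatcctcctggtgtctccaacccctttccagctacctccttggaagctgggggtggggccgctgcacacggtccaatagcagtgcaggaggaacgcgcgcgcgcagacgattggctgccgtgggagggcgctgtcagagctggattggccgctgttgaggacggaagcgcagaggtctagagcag
Edem2, chr2:155729426-155729725, minus strand: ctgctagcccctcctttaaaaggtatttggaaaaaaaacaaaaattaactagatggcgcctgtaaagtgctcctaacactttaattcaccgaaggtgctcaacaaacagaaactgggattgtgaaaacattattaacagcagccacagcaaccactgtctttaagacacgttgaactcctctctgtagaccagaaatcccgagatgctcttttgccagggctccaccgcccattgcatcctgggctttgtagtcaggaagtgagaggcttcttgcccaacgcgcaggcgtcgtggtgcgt

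The gene starts 250 bases into each run. The promoters of Hspa5, Creld2 and Sdf2l1 were rich in G and C (61.3%, 67.7% and 63.3%), and that of Edem2 less so (47.3%). The half-site CCACG, read on both strands, occurred 1 time in the Hspa5 promoter, 2 times in that of Creld2, 3 times in that of Sdf2l1 and 1 time in that of Edem2. A match of letters describes the window and does not show that a factor binds there.

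Calnexin and calreticulin, the lectins that hold glycoproteins until they are folded, were not called. Calr was at 11.78, 11.76 and 11.73 in the controls and 11.74, 11.69 and 11.71 in the mutants (difference -0.04, 95% interval -0.23 to 0.14). Canx had an SD of 0.02 in each group, and although its groups did not overlap, the difference was -0.08 with an adjusted p of 0.551.

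None of the 5 genes for disulfide bond formation was called. Pdia3, which encodes the isomerase that works with calnexin and calreticulin, differed by 0.03, and Pdia4 by 0.16. Pdia5 differed by -0.37 (adjusted p = 0.109) and Pdia6 by -0.24 (adjusted p = 0.202). Pdia5 was at 9.57, 9.29 and 9.08 on the control arrays and at 9.01, 8.88 and 8.94 in the mutants, so the controls spread more widely than the mutants and control replicate 3 came nearest to them. Ero1lb, which encodes an oxidase that recharges these isomerases, was above background in all controls and in none of the mutants, at 6.44, 6.60 and 7.06 against 6.45, 6.31 and 6.33. Its groups overlapped (difference -0.34, adjusted p = 0.212), and control replicate 3, the control with the most blood cell signal, was the highest.

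The prolyl isomerases, which act on the proline-rich collagen chains, were not called either. Ppib, which encodes cyclophilin B, differed by 0.02 (95% interval -0.19 to 0.22). Fkbp14 had the highest spread of all members among the controls (SD 0.36), at 9.88, 9.70 and 9.18, against 9.93, 9.85 and 9.93 in the mutants. Control replicate 3 was the lowest array, and the difference of 0.32 (adjusted p = 0.272) was 0.03 against control replicate 1 alone.

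None of the 4 genes for sensors of unfolded protein was called. Ern1, which encodes IRE1, was at 8.17, 8.17 and 8.25 in the controls and 8.20, 8.12 and 8.37 in the mutants (difference 0.04, 95% interval -0.19 to 0.26). Eif2ak3, which encodes PERK, was at 8.49, 8.55 and 8.33 against 8.51, 8.51 and 8.52 (0.06, interval -0.16 to 0.27). Atf6 was at 8.86, 8.95 and 8.84 against 8.87, 8.85 and 8.87 (-0.02, interval -0.21 to 0.17). Its relative Atf6b was at 7.98, 7.82 and 7.94 against 7.65, 7.81 and 7.87 (-0.14, interval -0.36 to 0.09). For all 4 sensors the groups overlapped, and limma adjusted p lay between 0.409 and 0.917. An array of this kind measures the amount of transcript and not the splicing of Xbp1, the phosphorylation of the kinases or the cleavage of ATF6.

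No transcription factor of the response was called either. Xbp1 was at 11.08, 11.09 and 11.05 in the controls and 11.11, 11.09 and 11.19 in the mutants. The mutants were all just above the controls, by 0.06 in the mean (95% interval -0.13 to 0.25, adjusted p = 0.683). Creb3l2 was at 10.84, 10.64 and 10.36 on the control arrays and at 10.66, 10.64 and 10.75 in the mutants, inside the range of the controls (difference 0.07, adjusted p = 0.77). Creb3l1, which encodes the related factor OASIS of bone-forming cells, was at 9.76, 9.52 and 9.18 against 9.51, 9.69 and 9.74 (difference 0.16, adjusted p = 0.541). Mbtps1, which encodes the site-1 protease that makes the first cut in these factors, had all 3 mutants above the controls, by 0.24 in the mean, with an adjusted p of 0.146.

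Among the 9 genes of ER-associated degradation 1 fell. Edem2 encodes a protein that trims mannose from misfolded glycoproteins and so marks them for degradation. Its levels were 7.93, 7.79 and 8.06 in the controls and 7.37, 7.58 and 7.49 in the mutants, all mutants below all controls. The difference was -0.45 (SE 0.11, 1.36-fold lower, adjusted p = 0.0301), while its paralogs Edem1 and Edem3 differed by -0.10 and 0.0016. Syvn1, which encodes the ubiquitin ligase HRD1, was at 9.19, 9.07 and 9.35 against 8.83, 8.83 and 8.90 and missed the threshold (-0.35, adjusted p = 0.0539). Its partner gene Sel1l had all 3 mutants above the controls (0.24, adjusted p = 0.152). The genes of the derlins, membrane proteins of the same channel, differed by -0.18 (Derl1), -0.06 (Derl2) and -0.14 (Derl3). Derl3 lay near background, above it in all controls and in 2 of 3 mutants. Herpud1, which encodes a scaffold of this complex, differed by -0.09 with an SD of 0.02 among the controls.

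None of the 5 genes of entry into the ER and export from it was called. Sec61b, a subunit of the translocation channel, and Ssr1, a subunit of the complex beside it, had differences of -0.15 (adjusted p = 0.331) and -0.17 (adjusted p = 0.394). The COPII coat genes Sec23a (0.04) and Sec24d (-0.02) and Mia3 (0.0044), which encodes the receptor TANGO1 that loads procollagen into COPII vesicles, had adjusted p of 0.793 to 0.983. Sec24d was at 10.00, 9.84 and 9.56 in the controls and 9.71, 9.80 and 9.84 in the mutants, with the mutants inside the range of the controls.

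The controls themselves were not alike in this machinery. Ranked by blood cell signal, control replicate 1 had the least and control replicate 3 the most, and 15 of the 41 members (36.6%) were lower at each step of that ranking, against 21.4% of all genes. Only 4 members (9.76%), Canx, Edem1, Derl3 and Ero1lb, were higher at each step, against 29.5% of all genes. The median of the olfactory receptor probe sets rose over the controls in the same ranking (5.17, 5.39 and 5.46). So did the median of all genes tested (7.04, 7.07 and 7.12), while that of the members fell (9.60, 9.54 and 9.35). Taken gene by gene, control replicate 1 minus control replicate 3 was smaller, with a median of 0.05 for the members and -0.05 for all genes tested. The parts of array intensity and of blood cells in this ranking were not tested. Control replicate 1 minus control replicate 3 was widest for Fkbp14 (0.70), followed in size by Ero1lb, which ran the other way (-0.62), and by Creb3l1 (0.57), Pdia5 (0.49), Creb3l2 (0.47) and Sec24d (0.45). The mean of the cartilage markers fell over the controls in the same ranking as Fkbp14, Creb3l1, Pdia5, Creb3l2 and Sec24d.

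Set against control replicate 1 alone, the mutant mean of Creb3l2 differed by -0.15, that of Sec24d by -0.22, that of Creb3l1 by -0.11 and that of Pdia5 by -0.63. In that fit, without control replicates 2 and 3, the lone control is assumed to vary like the mutants, and 1 member was called, Pdia5 (adjusted p = 0.0227). Hyou1, Sdf2l1, Manf and Edem2 kept differences of -0.37, -0.44, -0.44 and -0.45 in it, with adjusted p of 0.118, 0.129, 0.0709 and 0.072. Among the controls, Manf was highest on the array with the least blood cell signal, Hyou1 and Sdf2l1 were lowest there, and Edem2 was in between.

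**Figure D4:**
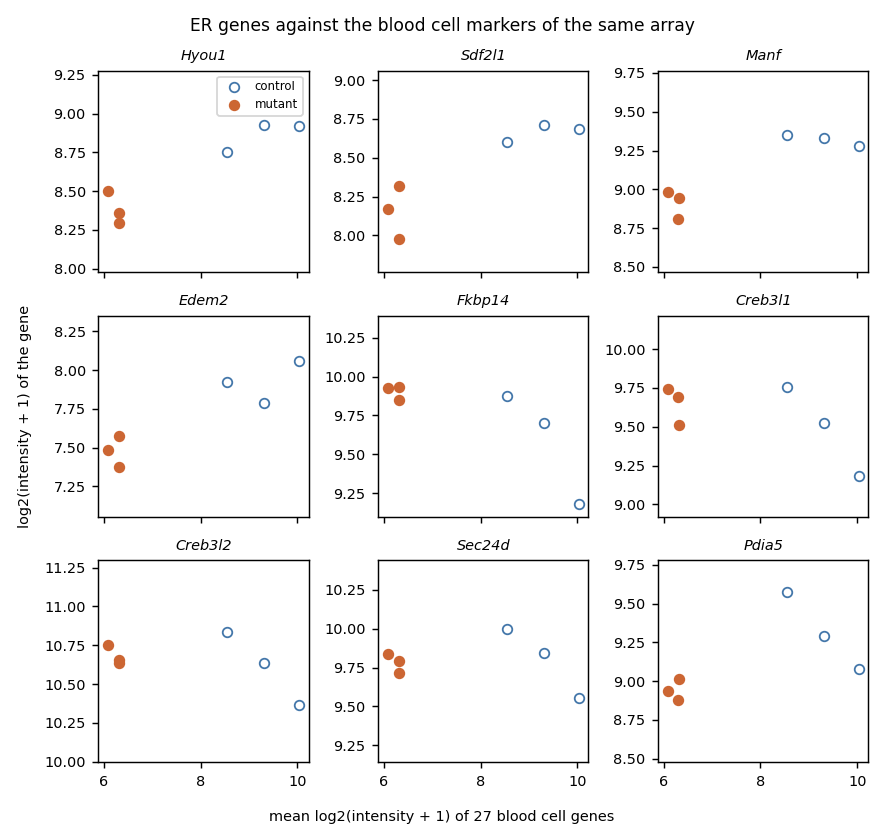
Level of 9 ER genes on each array (y axes, log2(intensity + 1), each spanning the same range) against the mean of 27 genes of blood cells (erythroid, neutrophil, B cell) on the same array (x axis, log2(intensity + 1)); open circles are the 3 controls and filled circles the 3 mutants. Fkbp14, Creb3l1, Creb3l2, Sec24d and Pdia5 are lower on controls with more blood cell signal, and the groups share no part of the x axis.

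Markers of plasma cells, an ER-rich cell type, were read as well. Of 7 plasma cell markers, Jchain, Mzb1 and Tnfrsf17 were above background on none of the 6 arrays. Of the 5 that were tested, 2 were called lower and 1 higher, and the groups did not overlap for any of the 5. Their median difference was -0.56, with a range of -2.23 to 0.87, and the part of plasma cells in the ER genes was not tested. The mean of the 7 was 6.84, 6.78 and 7.09 in the controls and 6.38, 6.37 and 6.43 in the mutants, and 3 of the 7 were above background in all controls and 2 in all mutants.

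The 4 decreases were small and depended on single arrays. The count of members that fell was 1 without control replicate 2, 1, 0 and 1 without mutant replicates 1, 2 and 3, 4 without control replicate 1 and 6 without control replicate 3. Adjusted p of these genes reached 0.077 for Hyou1, 0.084 for Sdf2l1, 0.0955 for Manf and 0.112 for Edem2, while the differences stayed between -0.59 and -0.36. Over all genes the calls also fell without control replicate 2 and without each mutant, to between 424 and 599 lower and between 512 and 730 higher.

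Other genes of the secretory pathway were taken from 10 lists with 162 genes, of which 154 were tested. Of these 154, 4 rose and 16 fell, or 13.0% in all, beside 14.7% of all genes. By direction, 7.84% of all genes were called higher and 6.82% lower. Without control replicate 2, 10 fell, and 6, 6 and 4 fell without mutant replicates 1, 2 and 3, while 2 rose without each of these 4 arrays and 9 rose without control replicate 1. Of the 20 called, Slc7a11, Chac1, Asns, Qsox1 and Fkbp7 kept an adjusted p under 0.05 with any 1 array left out, and the others lost it at least once. The list with the lowest median was that of the integrated stress response, the arm that PERK and other kinases start through translation of ATF4. Of its 22 tested genes 8 fell and 0 rose, with 1 gene higher at an unadjusted p under 0.05, and its median was -0.29. The count that fell was 4 without any 1 of the 3 mutants. Slc7a11, a cystine transporter gene, was at 8.57, 8.65 and 9.43 in the controls and 6.74, 6.43 and 6.71 in the mutants, which is near background, and was highest on control replicate 3. It fell by 2.26 (SE 0.23, adjusted p = 0.00126).

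Chac1, which encodes an enzyme that degrades glutathione, was at 10.82, 10.75 and 10.61 against 10.11, 9.93 and 10.21, 1.56-fold lower (adjusted p = 0.00911). Asns, asparagine synthetase, was at 10.66, 10.59 and 10.62 against 10.08, 9.96 and 10.16, 1.47-fold lower (adjusted p = 0.0074). For both, no mutant reached the level of any control. The others that fell were Sesn2, Mthfd2, Phgdh and Psat1, which serve nutrient sensing, one-carbon metabolism and serine synthesis, and Ddit3. Ddit3, which encodes the stress factor CHOP and was singled out after its values were seen, was at 8.70, 8.48 and 8.47 against 7.99, 8.02 and 8.22 (adjusted p = 0.0265, up to 0.102 with 1 array left out). Atf4 itself, also singled out, differed by -0.08 (95% interval -0.28 to 0.11). For these genes too the blood cell markers were lower in the mutants, and their part was not tested. Against control replicate 1 alone, the control with the least of that signal, the difference was larger in size for Chac1 (-0.73), Asns (-0.60), Ddit3 (-0.62) and Sesn2 (-0.54 to -0.64). It was smaller for Slc7a11 (-1.94), Psat1 (-0.50 to -0.46) and Phgdh (-0.42 to -0.40), and -0.53 in both fits for Mthfd2. Eif2ak1, which encodes a heme-regulated kinase of this response and was singled out after its values were seen, had the second largest difference of the list without being called (-1.13, adjusted p = 0.0543). It was at 8.08, 8.85 and 9.55 in the controls, in the ranking of their blood cell signal, and 7.65, 7.70 and 7.75 in the mutants, and differed by -0.38 against control replicate 1.

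The lists nearest to the members in function held the following calls, beside 14.7% of all genes called. Of 21 genes of the translocon, signal peptidase and signal recognition particle, Sec11c fell (-0.62, adjusted p = 0.0209). Of 12 oligosaccharyltransferase genes, which attach sugars to entering chains, Rpn1 (-0.38) and Ostc (-0.34) fell. None of 11 glucosidase and lectin genes was called; 2 were higher and 2 lower at an unadjusted p under 0.05, and Uggt1, the folding sensor of glycoproteins, had the smallest p (-0.29, adjusted p = 0.092). Of 14 other genes of degradation, Aup1 fell (-0.44), and of 22 other genes of COPII export, Mia2 was called lower (-0.56) at levels that were not above background on any array. None of the 3 other genes of the CREB3 family was called, and 0 had an unadjusted p under 0.05. Creb3l3 had the smallest p (0.29, adjusted p = 0.218), below background on every array.

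A few genes of oxidation and collagen folding rose. Qsox1, which encodes a secreted sulfhydryl oxidase, was at 8.84, 8.82 and 8.77 in the controls and 9.53, 9.60 and 9.73 in the mutants, 1.75-fold higher (SE 0.09, adjusted p = 0.00178, up to 0.0145 with 1 array left out). Tmx1, a membrane-bound disulfide isomerase gene, rose by 0.35 (adjusted p = 0.0392, up to 0.139). Of 19 genes of collagen folding and modification, Fkbp7 (0.95) and P3h3 (0.51) rose and Fkbp11 (-0.41) and Fkbp2 fell. Fkbp7, a prolyl isomerase gene, was at 9.87, 9.60 and 9.28 in the controls and 10.60, 10.43 and 10.57 in the mutants. Fkbp7 and P3h3 were lower on controls with more blood cell signal, and the fibrous tissue markers, which were higher in the mutants, had that ranking over the controls too. Qsox1 was also lower at each step of that ranking, from 8.84 to 8.77. Of 16 genes of ER calcium and turnover, the calcium pump gene Atp2a3 fell (limma adjusted p = 0.0126). It went from between 7.32 and 8.85 in the controls to between 6.11 and 6.42 in the mutants, which is below background. Its level over the controls had the ranking of the blood cell markers, and the part of blood cells in its fall was not tested.

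**Figure D5:**
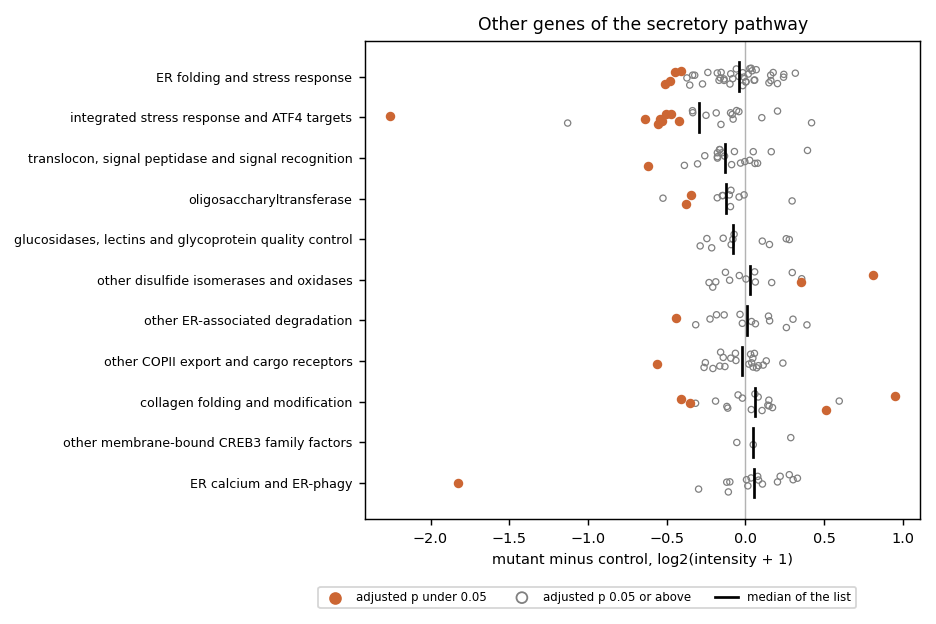
Difference between mutants and controls (x axis, log2(intensity + 1)) for the 41 ER genes and for 154 tested genes in 10 other lists of the secretory pathway (y axis); each point is a gene, filled orange where the limma adjusted p was under 0.05, and black bars are list medians. The medians lie between -0.29 for the integrated stress response list and 0.06, and that of the ER genes is -0.04.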

How the data were processed

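The members and the other gene lists were chosen with earlier results of these data known, so no list is independent evidence. Per the labels' protocols, total RNA was isolated with an RNeasy kit and 300 ng per sample was labelled with the Ambion WT kit. The authors deposited 1 table of linear intensities for 35512 probe sets on 6 arrays, whose summary method and normalization the labels do not give. Array medians were 82.4 to 90.5, and the number of arrays limits the precision.

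The platform annotation pairs 21789 probe sets with a single gene and 1621 with more than 1, and lists no gene for 12102; 21698 took their present symbol from the RefSeq gene table by gene number. For each gene the probe set with the highest mean was used, as log2(intensity + 1), after leaving out the lowest 25% of probe sets by mean over all arrays (under an intensity of 46.2). The 17020 genes left were compared, 3 mutants against 3 controls without a block, using lmFit and eBayes of limma (version 3.58.1, under R 4.3.3), with Benjamini-Hochberg adjustment over all of them. A gene was called at an adjusted p under 0.05. The script was tested on simulated data.

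Members called, the 4 sensors, Xbp1, Creb3l1 and Creb3l2 were to be given on every array, with up to 3 called genes from each other list; values on every array of further genes, Atf4, Ddit3, Eif2ak1 and Fkbp2 were chosen after their values were seen. Alternatives were 2 other normalizations, 2 other filters, a pseudocount of 16, the mean of probe sets, an intensity trend, the replicate number as a block, each array left out, and control replicates 2 and 3 left out together.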

Additional observations from a re-analysis of the deposited data

How the results depend on the processing

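No member was called higher under any of the 15 alternatives, and no call reversed. The count of members called lower was 4, and 0 to 6 with 1 array left out; it was 2 with the replicate block (Hyou1 and Sdf2l1) and 1 without control replicates 2 and 3 (Pdia5). It was 6 with a filter at the median, a pseudocount of 16 or an intensity trend, each adding Creld2 and Syvn1, and the cause was not tested. The labels do not say that a shared replicate number pairs a control with a mutant, and 3 arrays per group cannot decide it. Deviations from the group means of arrays with the same number correlated by 0.08, 0.21 and -0.08. Mutant replicates 1 and 2 correlated best with the control of their own number, and mutant replicate 3 with control replicate 1 (0.11). Over all genes 1335 were higher and 1161 lower; with 1 array left out these counts were 512 to 1642 and 424 to 1640, and without control replicates 2 and 3 the first was 885. With fewer arrays there is less power. The other 154 secretory genes, 4 higher and 16 lower, were 2 and 15 with median centring, 2 and 11 with the replicate block and 8 and 23 with an intensity trend. Of 615 combinations of member and alternative, 558 kept direction and call, 29 changed sign without a call in either fit, 19 lost a call and 9 gained one.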

Other observations

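Mbtps2, which encodes the site-2 protease that makes the second cut in ATF6, shares a probe set with Yy2. That probe set was at 8.47, 8.20 and 8.12 in the controls and 8.69, 8.39 and 8.59 in the mutants, with a difference of 0.29, and it cannot tell the 2 genes apart. Dnajc3 has 2 probe sets with identical values on all 6 arrays. The 3 probe sets of Sec61b differed by -0.15, -0.25 and -0.14. The second, dimmer probe set of Pdia4 differed by 0.23.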
